A study of Mus musculus with 27 samples.

Results

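Xanthohumol was compared with saline in the hippocampus of ovariectomized mice at the level of mRNA. The comparison consists of 8 gene expression libraries, chosen by their labels: 4 from mice given xanthohumol after ovariectomy (OVX Xmo 1 to 4) and 4 from mice given saline after ovariectomy (OVX saline 1 to 4). The whole series has 27 samples, of which 15 are gene expression libraries. The strain was ICR, an outbred stock, and every mouse of both groups had been ovariectomized, so the groups differ in treatment alone as far as the labels tell. The remaining gene expression libraries came from sham-operated mice given saline (3 libraries) or xanthohumol (4 libraries). They helped to estimate the spread of each gene and serve below for a comparison of the treatment effect between surgeries. The labels give no dose, duration or age, and do not say whether each library is 1 animal, so the p-values measure only the spread between these libraries, which may be technical.

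Xanthohumol is a prenylated flavonoid of hops, known as an antioxidant that can activate the transcription factor NRF2, and as a precursor of a plant estrogen formed from it in the gut. Ovariectomy removes the main source of circulating estrogen and is used in rodents as a model of menopause. The hippocampus forms new memories through a circuit that runs from the granule cells of the dentate gyrus to the pyramidal cells of CA3 and CA1, under the control of inhibitory interneurons and of serotonin, noradrenaline and acetylcholine released from fibers of distant nuclei. The tissue label was checked against marker genes: all 18 listed granule cell genes, all 13 CA1 genes and all 16 CA2 and CA3 genes were detected above the count filter. The markers of neighboring tissues were detected too, and differed most between single libraries. The summed level of 22 choroid plexus genes was 2580 CPM (counts scaled to 1e+06 per library, with TMM factors between libraries) in OVX Xmo 3, against 303 to 836 CPM in the other 7 libraries. The summed level of 22 thalamic and habenular genes was 1750 CPM in OVX Xmo 2 and 355 to 991 CPM elsewhere. Results that rest on these libraries are given with and without them. Total counts were between 22.6 and 39.1 × 1e+06 in OVX saline and between 20.8 and 34.8 × 1e+06 in OVX Xmo, with OVX Xmo 3 the shallowest.

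No gene passed the test between OVX Xmo and OVX saline. Of 19969 genes tested with edgeR's quasi-likelihood test, 0 (0.0%) had a Benjamini-Hochberg adjusted p under 0.05, and the smallest adjusted p was 0.301. At an unadjusted p under 0.05 there were 834 genes (4.18%), of which 405 (2.03%) were higher and 429 (2.15%) lower in OVX Xmo. The 4 OVX Xmo values lay all above or all below the 4 OVX saline values in 621 genes (3.11%), 277 of them higher (1.39%) and 344 lower (1.72%). Differences were small in most genes. Among the 15814 genes with a mean of at least 1 CPM, the log2 fold change ran from -0.32 at the 5% quantile to 0.36 at the 95% quantile, and 95 genes (0.601%) differed by 1 or more on the log2 scale. The median standard error in this set was 0.151, which limits what could be detected. DESeq2 called 3 of 19946 genes (0.015%) at an adjusted p under 0.05, Tacr3 (0.0334), Rap1gap2 (0.00685) and AC166936.1 (0.00186), and edgeR on the 8 OVX libraries alone called 1 of 18633 (0.00537%), Bach2 (0.00522). Since no gene passed the main test, genes are described by their levels, and the 12 higher and 12 lower genes named first are those with the smallest p among annotated genes of at least 1 CPM whose groups did not overlap.

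**Figure D1:**
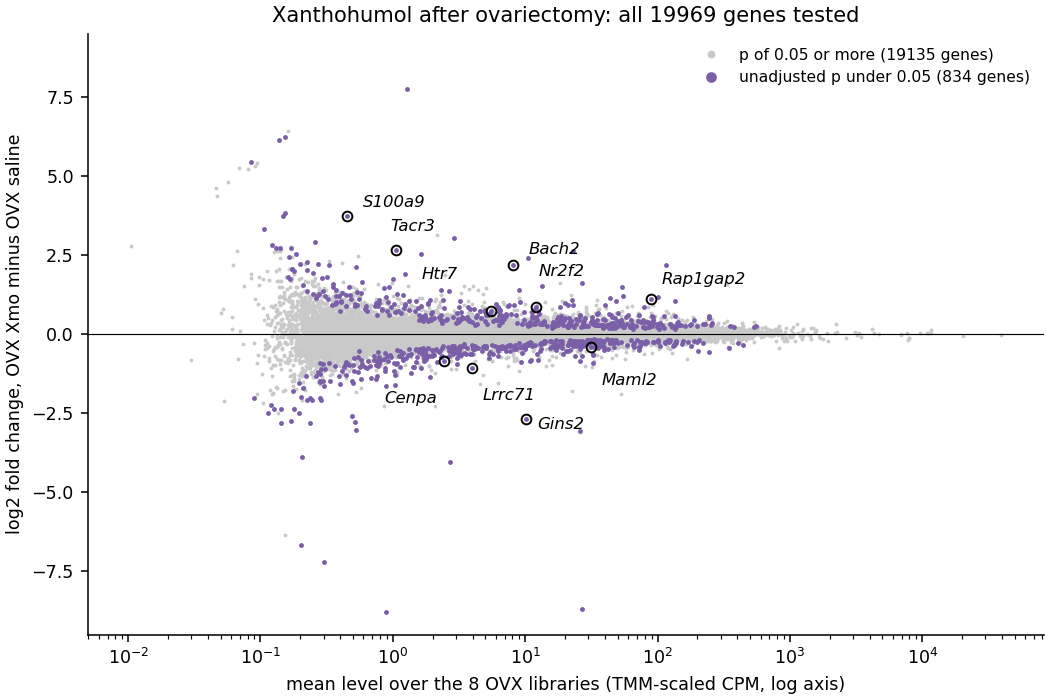
Each point is 1 of the 19969 genes tested, with the mean level over the 8 OVX libraries on the x axis (TMM-scaled CPM, log axis) and the log2 fold change of OVX Xmo minus OVX saline on the y axis. The 834 genes at an unadjusted p under 0.05 are in purple, 10 genes described in the text are circled, and none passed after adjustment.

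Among the higher genes, Bach2 and Tacr3 had the smallest p. Bach2 (ENSMUSG00000040270, chromosome 4:32238804-32586108, GRCm38.p6) encodes a transcription repressor that, like NRF2, pairs with small Maf proteins and is best known from B cells. Bach2 measured 2.65, 3.13, 3.45 and 2.48 CPM in OVX saline and 16.9, 10.5, 14.0 and 11.9 CPM in OVX Xmo. Each OVX Xmo library was above every OVX saline library (log2 fold change 2.18, SE 0.5, edgeR adjusted p = 0.998 with all 15 libraries). The difference was smaller in the deposited TPM, which is also scaled for length, with means of 1.64 and 3.7 and a log2 fold change of 0.84 on the log2(TPM + 1) scale. The gene's level was also uneven in the sham groups, at 14.1, 1.92 and 16.0 CPM with saline and 2.27, 8.86, 2.98 and 4.21 CPM with xanthohumol. The fit of all 15 libraries takes 1 spread per gene over all groups, these sham values included, whereas the fit of the 8 OVX libraries, in which Bach2 passed, does not.

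Tacr3 encodes the neurokinin B receptor, a peptide receptor known for its part in the estrogen-sensitive control of reproduction (ENSMUSG00000028172, chromosome 3:134829007-134934579). It measured 0.25, 0.204, 0.521 and 0.163 CPM in OVX saline and 2.32, 0.814, 2.0 and 2.24 CPM in OVX Xmo (log2 fold change 2.66, SE 0.61). The levels were low in both groups and did not overlap, and OVX Xmo 2 was the lowest of its group. Rap1gap2 encodes an activator of the GTPase of Rap1, a small G protein of adhesion and vesicle release (ENSMUSG00000038807, chromosome 11:74383356-74610915). It measured 48.5, 56.8, 64.7 and 59.2 CPM in OVX saline and 154, 137, 62.9 and 136 CPM in OVX Xmo (log2 fold change 1.1, SE 0.22). OVX Xmo 3 lay among the saline libraries, and without it Rap1gap2 was the 1 gene that passed (log2 fold change 1.31, edgeR adjusted p = 0.00574). The list of Rap1 regulators, which includes Rap1gap2, showed no common direction: of 19 tested, 9 were higher and 10 lower, with a median log2 fold change of -0.017.

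Nr2f2 encodes COUP-TFII, an orphan nuclear receptor of interneurons and vessels (ENSMUSG00000030551, chromosome 7:70351944-70366735). Its levels were 7.79, 5.06, 10.6 and 11 CPM in OVX saline and 12.4, 16.9, 16.2 and 16.4 CPM in OVX Xmo (log2 fold change 0.85, SE 0.2). The groups did not overlap, but the distance between them was smaller than the range within OVX saline. Qrfpr, a receptor of the RF-amide peptide 26RFa, measured 0.576, 0.679, 0.553 and 0.732 CPM in OVX saline and 1.75, 1.88, 1.22 and 1.16 CPM in OVX Xmo (log2 fold change 1.25, SE 0.32). The remaining members with the smallest p were Htr7, described with the receptors below, Nhs (log2 fold change 0.62), Rsad1 (1.03), Arhgap6 (0.8), Rabgap1 (0.39), Brip1os (0.45) and the interferon-inducible GTPase genes Gbp4 (0.77) and Tgtp2 (1.08). Gbp4, Tgtp2, Brip1os, Rabgap1, Arhgap6 and Nr2f2 share between 12.3% and 100% of their span with another gene, and since no source used here says whether counting used strand, their values are uncertain. Genes added for the size of the fold change were Pcdhgb7, Yy2 (1.74, wholly within Mbtps2) and Mfap3. Pcdhgb7, which lies wholly within the protocadherin gamma cluster, measured 133 CPM in OVX Xmo 2 against 5.33 to 9.17 CPM in the other 7 libraries. Mfap3 measured 7.59, 28.7, 9.34 and 7.73 CPM in OVX saline and 37.5 to 44.8 CPM in OVX Xmo (log2 fold change 1.61, SE 0.68).

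Among the lower genes the smallest p was that of Cenpa, which encodes the histone H3 variant that marks centromeres (ENSMUSG00000029177, chromosome 5:30666777-30674830). It measured 3.06, 4.11, 2.96 and 2.52 CPM in OVX saline and 1.78, 1.6, 1.59 and 1.98 CPM in OVX Xmo (log2 fold change -0.86, SE 0.18). All 4 OVX Xmo libraries lay below 2.52 CPM and close to each other. Lrrc71, a leucine-rich repeat gene listed among the ependymal genes, measured 7.26, 4.82, 5.24 and 4.11 CPM in OVX saline and 2.91, 3.23, 1.86 and 2.13 CPM in OVX Xmo (log2 fold change -1.07, SE 0.23; 15.8% of its span overlaps other genes). Tnfrsf25 encodes death receptor 3, a receptor of the tumor necrosis factor family. It measured 27.8, 35, 23.8 and 31.3 CPM in OVX saline and 20.2, 19.8, 16.6 and 17.0 CPM in OVX Xmo (log2 fold change -0.68, SE 0.17).

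Hcfc2, a relative of the chromatin cofactor gene Hcfc1, measured 42.1, 42.6, 37.1 and 36.9 CPM in OVX saline and 23.7, 23.6, 23.7 and 29.4 CPM in OVX Xmo (log2 fold change -0.66, SE 0.17). Its OVX Xmo libraries were close to each other apart from OVX Xmo 4, and none reached the saline range. Ak4, a mitochondrial adenylate kinase, measured 37.6, 31.1, 39.2 and 25.3 CPM in OVX saline and 23.3, 13.4, 20.4 and 17.2 CPM in OVX Xmo (log2 fold change -0.85, SE 0.23). Dnase1l2, a secreted endonuclease gene, measured between 6.99 and 8.73 CPM in OVX saline and between 4.48 and 5.17 CPM in OVX Xmo (log2 fold change -0.7, SE 0.16). The other members were Maml2 (-0.4), Prtg (-0.48), Vwa3b (-0.43) and the zinc finger genes Zscan20 (-0.53) and Zfp184 (-1.36, with 13.4% of its span shared), with Mypopos (-0.55), which lies wholly within Mypop and is uncertain. By fold, Gins2 (-2.69), Ccdc180 (-1.22) and Anxa11os (-1.18, wholly within Anxa11) were added. Gins2 encodes a subunit of the replicative helicase and overlaps Gse1 and another gene over its whole span. It measured 14.8, 7.98, 38.4 and 9.76 CPM in OVX saline and 4.13, 1.18, 1.18 and 4.40 CPM in OVX Xmo, with OVX saline 3 standing far above the rest. The gene with the smallest p of all was the clone-named AC166936.1, named here after its values were seen, at 3.91, 4.04, 4.13 and 3.98 CPM in OVX saline and 2.19, 2.19, 1.72 and 2.20 CPM in OVX Xmo (log2 fold change -0.95, SE 0.15, edgeR adjusted p = 0.301). It lies within Myt1l and is uncertain for that reason. The 12 higher and 12 lower genes had the same sign as here in each of the other settings that tested them (18 or 19 per gene). They were chosen for groups without overlap in these same libraries, which nearly fixes the sign, so this is no further evidence. The size of the fold change moved by over 1.5 times toward 0 in 11 of the 24 with limma on log2(TPM + 1), for example in Tacr3 (0.75), Nr2f2 (0.45) and Zfp184 (-0.45). The 1 added to each TPM compresses the folds of low genes such as Tacr3, with mean TPM of 0.138 in OVX saline and 0.933 in OVX Xmo. It weighs less on Nr2f2, with mean TPM of 7.37 and 10.1.

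**Figure D2:**
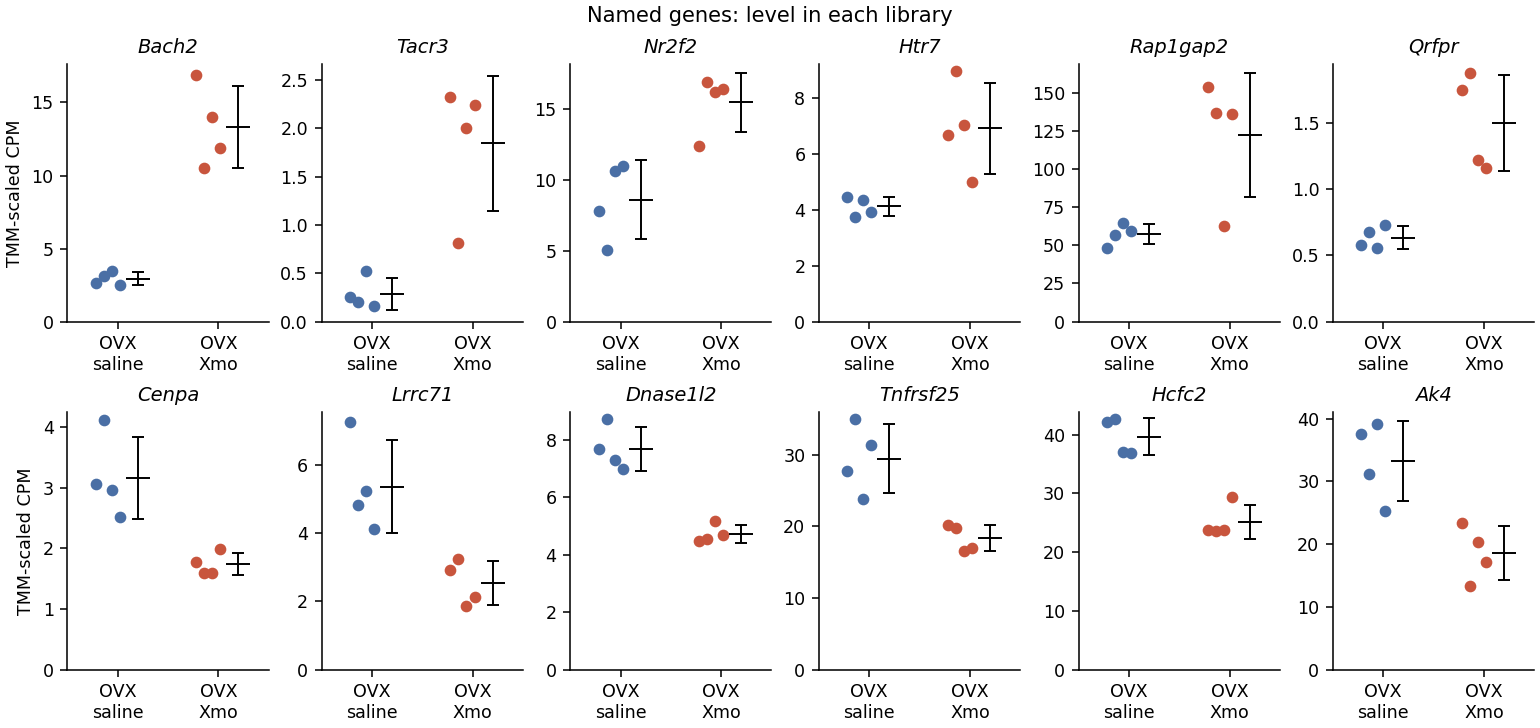
Level of 12 named genes in each OVX saline library (blue) and each OVX Xmo library (red) in TMM-scaled CPM, with the y axis from 0; points run from library 1 to 4 from left to right, and the bars give the group mean with its SD (n = 4). The groups do not overlap except for Rap1gap2, where OVX Xmo 3 at 62.9 CPM lies among the saline libraries.

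Receptors for serotonin, noradrenaline, dopamine and acetylcholine leaned to higher levels after xanthohumol, led by serotonin receptors. Of 26 tested members of the list, 19 were higher and 7 lower, 6 were higher and 0 lower at an unadjusted p under 0.05 (2.03% and 2.15% of all genes tested), and the list median was 0.113 against 0.0034 over all genes tested. None passed after adjustment. The summed level of the list was 429 to 518 CPM in OVX saline and 508 to 544 CPM in OVX Xmo. Htr7, a Gs-coupled serotonin receptor of CA3 and the thalamus, measured 4.48, 3.74, 4.36 and 3.94 CPM in OVX saline and 6.69, 8.96, 7.03 and 5.0 CPM in OVX Xmo (log2 fold change 0.74, SE 0.18). The groups did not overlap, and the highest value was in OVX Xmo 2, the library with high thalamic genes. Over 19 other settings, including that without OVX Xmo 2, the log2 fold change of Htr7 ran from 0.49 to 0.87. The median of the whole list was 0.13 without OVX Xmo 2, and it was lowest, at 0.07, without OVX saline 2.

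Htr1a, the inhibitory serotonin receptor of CA1 pyramidal cells, measured 20.4, 20.4, 18.5 and 16.3 CPM in OVX saline and 24.0, 21.3, 23.6 and 31.3 CPM in OVX Xmo (log2 fold change 0.4, SE 0.16). Adra2a, the Gi-coupled alpha-2A adrenergic receptor, measured 5.74, 5.81, 6.31 and 5.57 CPM in OVX saline and 7.23, 8.73, 9.03 and 7.35 CPM in OVX Xmo (log2 fold change 0.46, SE 0.15). Neither gene's groups overlapped. Htr2c, the Gq-coupled serotonin receptor that is also abundant in choroid plexus, measured 9.62, 15.7, 11.9 and 26.6 CPM in OVX saline and 26.1, 32.4, 24.2 and 36.7 CPM in OVX Xmo (log2 fold change 0.91, SE 0.29). Here OVX saline 4 lay within the OVX Xmo range, and OVX Xmo 3, the library with high choroid plexus genes, was the lowest of its group. Htr1b (log2 fold change 0.53, SE 0.18) and Htr5b (0.65, SE 0.28), named after their values were seen, overlapped between groups, and Htr1b shares 41.1% of its span with another gene.

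**Figure D3:**
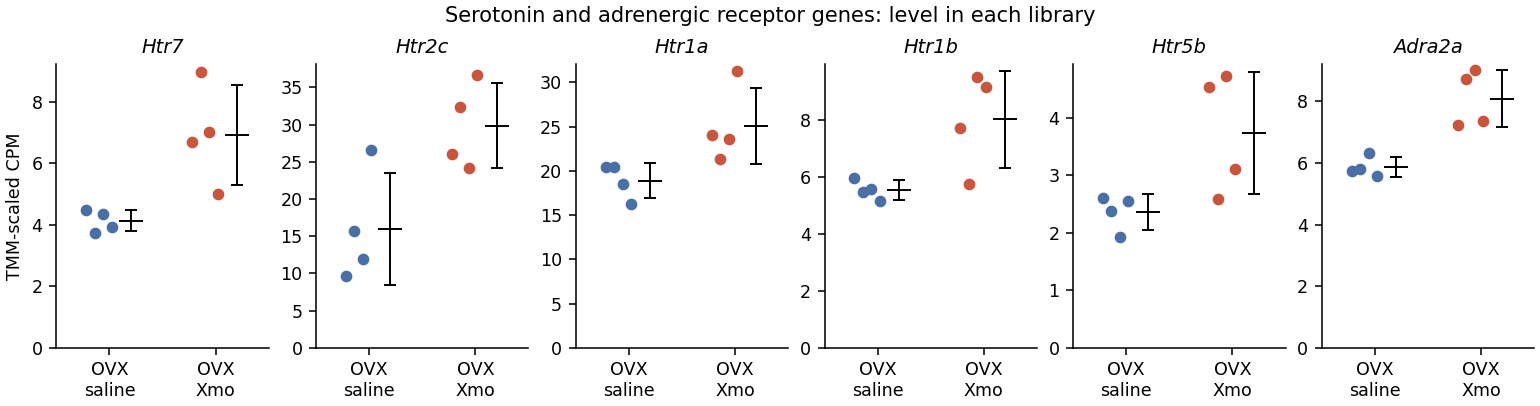
Level of 5 serotonin receptor genes and the adrenergic receptor gene Adra2a in each library in TMM-scaled CPM, with the y axis from 0; blue points are OVX saline 1 to 4, red points OVX Xmo 1 to 4, and bars give the mean with its SD (n = 4). Htr7, Htr1a and Adra2a have no overlap between groups, and none of the 6 genes passed after adjustment.

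Marker genes of dentate granule cells were lower after xanthohumol in most cases. Of 18 tested, 15 were lower and 3 higher, 8 were lower and 0 higher at an unadjusted p under 0.05 (2.15% and 2.03% of all genes tested), and the median was -0.245. None passed after adjustment. Maml2, a coactivator of Notch signaling, measured 37.5, 36.9, 33.1 and 35.6 CPM in OVX saline and 29.0, 28.4, 23.5 and 27.5 CPM in OVX Xmo (log2 fold change -0.4, SE 0.1). Dsp, the desmosome protein gene that marks granule cells, measured 53.3, 56.3, 52.2 and 49.4 CPM in OVX saline and 39.5, 46.1, 33.9 and 41.4 CPM in OVX Xmo (log2 fold change -0.39, SE 0.14). Pdzd2 (-0.3, SE 0.1) and Pitpnm2 (-0.26, SE 0.13) were the other members without overlap, so that 4 of 18 lay below every saline library, against 1.72% of all genes tested. The polo-like kinase gene Plk5 (-0.69) and the calcium channel gene Trpc6 (-0.3) were lower with overlap. Trpc6 and Pitpnm2 share 26.8% and 10.3% of their span with another gene and are less certain. Prox1, the transcription factor that defines granule cells, had a log2 fold change of -0.16 (SE 0.12).

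The summed level of the granule cell list was 1740, 1720, 1700 and 1690 CPM in OVX saline and 1370, 1770, 1350 and 1530 CPM in OVX Xmo. OVX Xmo 2 was therefore no lower than the saline libraries, and the other 3 OVX Xmo libraries were lower. The list median stayed between -0.307 and -0.224 in 19 other settings, so its direction did not rest on 1 library. In bulk tissue, fewer cells of a type and less RNA per cell cannot be told apart, nor can a different share of the dentate gyrus in the dissected piece. Markers of CA1 went the other way in 11 of 13 genes (median 0.217, 0.386 without OVX Xmo 2), with the phosphoesterase gene Mpped1 at 39.7, 56.7, 42.1 and 108 CPM in OVX saline and 157, 88.0, 167 and 142 CPM in OVX Xmo (log2 fold change 1.17, SE 0.47). The CA1 list was low in OVX Xmo 2, with a sum of 520 CPM against 843 to 889 CPM in the other 3. Markers of CA2 and CA3 had a median of 0.045, which was -0.093 without OVX Xmo 2.

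Genes of the ventral hippocampus were looked at after values were seen, because Nr2f2, Trhr and Htr2c are known to be higher at that end. Of the 7 genes listed, these 3 were the ones at an unadjusted p under 0.05, so the list is no independent evidence of a direction and its median is not given. Trhr, the receptor of thyrotropin-releasing hormone, measured 1.68, 1.83, 1.66 and 1.87 CPM in OVX saline and 2.54, 2.25, 3.67 and 4.07 CPM in OVX Xmo (log2 fold change 0.82, SE 0.29). The sum of the 7 genes was 51.1 to 101 CPM in OVX saline and 83.6 to 135 CPM in OVX Xmo, and the groups overlapped in it. Of 4 genes of the dorsal end, 2 were higher and 2 lower. The part of this difference in the granule cell, CA1 and receptor values was not tested.

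**Figure D4:**
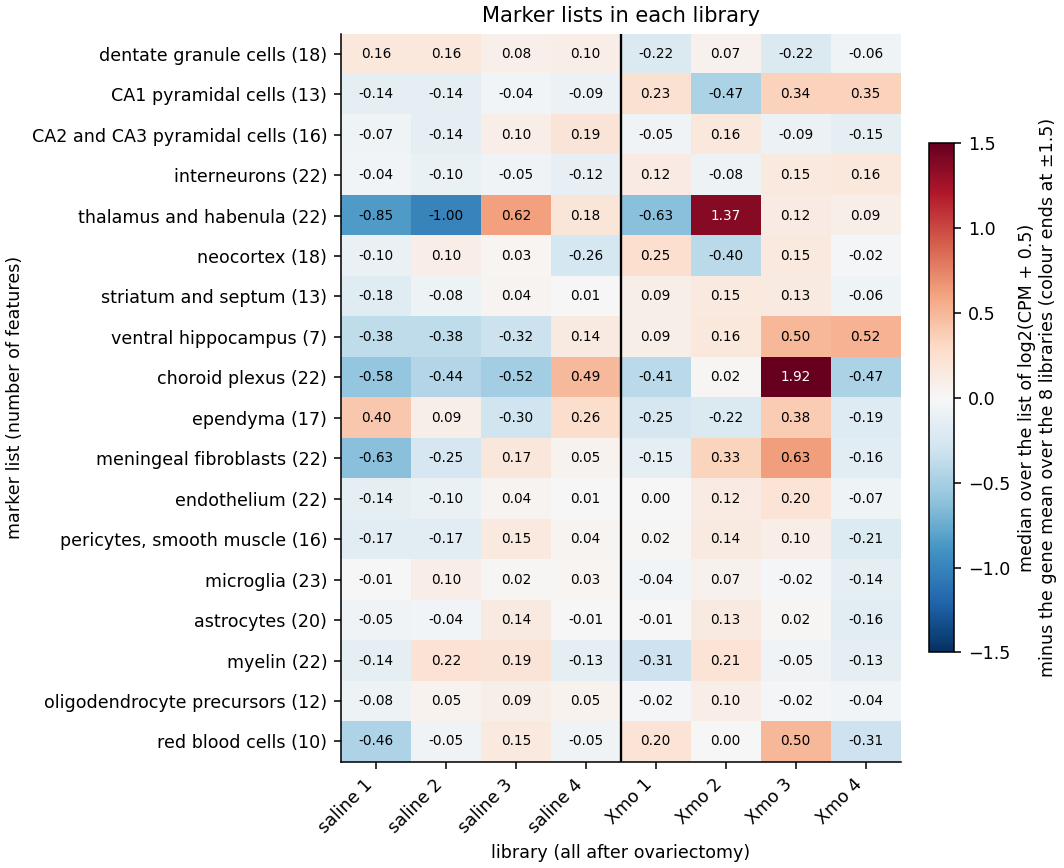
Rows are marker lists with the number of features measured, columns the 8 libraries, and each cell gives the median over the list of log2(CPM + 0.5) minus each gene's mean over the 8 libraries, with colors ending at 1.5 in either direction. Choroid plexus genes stand out in OVX Xmo 3 (1.92) and thalamic genes in OVX Xmo 2 (1.37), while granule cell genes are between 0.08 and 0.16 in all OVX saline libraries and below 0 in 3 of 4 OVX Xmo libraries. The ventral hippocampus list was added after values were seen, so its row is no independent evidence of a direction.

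Markers of inhibitory interneurons were higher in 19 of 22 cases (median 0.175, 0.122 to 0.27 in other settings). Gad2, an enzyme of GABA synthesis, measured 129, 115, 131 and 134 CPM in OVX saline and 139, 145, 146 and 170 CPM in OVX Xmo without overlap (log2 fold change 0.24, SE 0.11). The sister enzyme Gad1 had a log2 fold change of 0.38 (SE 0.16) with overlap, and 21% of its span is shared with an antisense gene. Genes of the presynapse and of synaptic vesicles were higher in 25 of 29 cases, with a median of 0.134. Vamp2, a fusion protein of vesicles, measured 560, 554, 648 and 601 CPM in OVX saline and 702, 601, 775 and 702 CPM in OVX Xmo (log2 fold change 0.23, SE 0.12). The postsynaptic and glutamate receptor list lay near the median of all genes (0.021), with the kainate receptor subunit gene Grik1 at 9.34, 9.78, 11.2 and 10.8 CPM in OVX saline and 11.4, 13.3, 15.4 and 13.9 CPM in OVX Xmo (log2 fold change 0.39, SE 0.16). Of 26 potassium channel genes 19 were higher (median 0.111, 0.028 without OVX Xmo 4). Kcnma1, the large-conductance calcium-activated channel, measured 69.1, 67.7, 70.6 and 78.2 CPM in OVX saline and 86.0, 97.9, 94.7 and 92.5 CPM in OVX Xmo without overlap (log2 fold change 0.38, SE 0.12).

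Cell division genes, which in the adult hippocampus mark the few dividing progenitor and glial cells, were lower in 22 of 28 cases, 3 of them at an unadjusted p under 0.05 and 0 higher at that level (2.15% and 2.03% of all genes tested). The list median was -0.171, between -0.213 and -0.125 in other settings. Besides Cenpa, Ccnb2, the mitotic cyclin B2, measured 1.13, 1.26, 0.813 and 0.935 CPM in OVX saline and 0.782, 0.393, 0.59 and 0.41 CPM in OVX Xmo (log2 fold change -0.92, SE 0.39). Bub1b, a kinase of the spindle checkpoint, measured 4.11, 6.05, 4.36 and 4.59 CPM in OVX saline and 3.56, 2.75, 4.54 and 1.57 CPM in OVX Xmo (log2 fold change -0.62, SE 0.26), and OVX Xmo 3 lay within the saline range. The summed level of the list was 103 to 116 CPM in OVX saline and 102 to 104 CPM in OVX Xmo, a smaller separation than in these 3 genes. Markers of adult neurogenesis had a median of 0.005, with 9 of 18 higher.

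The promoters of these 3 genes are shown because genes of late cell division are known to carry the cell cycle genes homology region, searched here as TTTGAA on both strands. The sequences are from RefSeq (GRCm38.p6) and run from 250 bases before to 50 bases after the annotated start, 5′ to 3′ on the gene's strand, with each match in capitals. The Cenpa window is chr5:30666636-30666935 on the plus strand, that of Ccnb2 is chr9:70421505-70421804 on the minus strand, and that of Bub1b is chr2:118597961-118598260 on the plus strand.
Cenpa: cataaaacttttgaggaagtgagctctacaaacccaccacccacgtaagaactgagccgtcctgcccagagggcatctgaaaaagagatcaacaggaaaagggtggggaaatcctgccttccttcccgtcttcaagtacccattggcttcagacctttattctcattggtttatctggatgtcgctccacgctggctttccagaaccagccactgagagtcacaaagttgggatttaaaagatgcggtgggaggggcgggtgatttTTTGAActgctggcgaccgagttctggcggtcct
Ccnb2: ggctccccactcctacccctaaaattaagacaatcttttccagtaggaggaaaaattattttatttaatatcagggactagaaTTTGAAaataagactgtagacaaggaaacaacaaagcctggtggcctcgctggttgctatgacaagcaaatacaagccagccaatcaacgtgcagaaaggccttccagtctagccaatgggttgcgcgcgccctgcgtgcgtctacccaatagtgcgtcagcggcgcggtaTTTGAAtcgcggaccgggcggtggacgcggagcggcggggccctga
Bub1b: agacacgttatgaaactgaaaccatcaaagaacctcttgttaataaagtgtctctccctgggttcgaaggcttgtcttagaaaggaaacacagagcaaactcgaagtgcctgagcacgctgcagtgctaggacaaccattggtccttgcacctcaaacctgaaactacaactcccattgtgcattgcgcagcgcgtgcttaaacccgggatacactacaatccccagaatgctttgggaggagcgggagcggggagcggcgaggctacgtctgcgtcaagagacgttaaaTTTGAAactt
The match begins at base 267 of 300 in Cenpa, at bases 84 and 255 in Ccnb2 and at base 291 in Bub1b. The motif was found in 13 of 25 promoters of the list (52.0%) and in 17.9% of all 32851 RefSeq promoters of this length. Mki67, Top2a and Cdk1 carry it too. A match of 6 letters describes the sequence and nothing more.

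Cytosolic ribosomal protein genes were lower in 46 of 49 cases, 9 of them at an unadjusted p under 0.05 (2.15% of all genes tested), with a median of -0.161. Rpl14 measured 129, 127, 114 and 118 CPM in OVX saline and 111, 104, 101 and 98.3 CPM in OVX Xmo without overlap (log2 fold change -0.24, SE 0.09). Rpl26 measured 143, 145, 174 and 147 CPM in OVX saline and 140, 121, 133 and 102 CPM in OVX Xmo (log2 fold change -0.3, SE 0.12). Their share of all counts was 0.855% ± 0.0341 (SD, n = 4) with saline and 0.753% ± 0.0856 (SD, n = 4) with xanthohumol, lowest in OVX Xmo 4 at 0.634%, and without that library the list median was -0.115. Nuclear genes of oxidative phosphorylation were lower in 36 of 47 cases with a median of -0.075, which was -0.029 without OVX Xmo 4. Genes of the mitochondrial genome took 14.2% ± 1.94 of counts with saline (SD, n = 4) and 14.0% ± 1.75 with xanthohumol (SD, n = 4), the highest shares being 16.5% in OVX saline 1 and 16.5% in OVX Xmo 4. The part of these library shares in the list values was not tested.

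Cholesterol synthesis genes were higher in 21 of 26 cases (median 0.096, 0.044 without OVX Xmo 1), each by a small amount. Hmgcs1, the synthase that makes the precursor of mevalonate (ENSMUSG00000093930), measured 170, 159, 179 and 176 CPM in OVX saline and 198, 187, 193 and 212 CPM in OVX Xmo (log2 fold change 0.21, SE 0.14). The groups did not overlap. Stard4, a sterol carrier, had the smallest p of the list (log2 fold change 0.41, SE 0.12), with OVX Xmo 3 at 17.9 CPM inside the saline range of 13.3 to 18.2 CPM. The Hmgcs1 promoter is shown because it holds a sterol regulatory element, the site of SREBP factors, searched as TCACNCCAC on both strands. The RefSeq window is chr13:119690101-119690400 on the plus strand, with the match in capitals at base 114.
Hmgcs1: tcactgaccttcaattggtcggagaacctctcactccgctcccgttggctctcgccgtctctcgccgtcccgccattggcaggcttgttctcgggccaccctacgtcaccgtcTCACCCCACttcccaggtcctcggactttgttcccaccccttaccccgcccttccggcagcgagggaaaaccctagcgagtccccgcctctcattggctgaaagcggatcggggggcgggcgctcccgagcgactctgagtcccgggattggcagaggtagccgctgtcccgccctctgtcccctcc
This was the 1 match among 24 promoters of the list (4.17%), against 1.24% of all RefSeq promoters.

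Targets of NRF2 and other antioxidant genes, the group most often linked to xanthohumol, showed no common direction. Of 30 tested, 16 were higher and 14 lower, and the median was 0.002. At an unadjusted p under 0.05 there were 0 in either direction, against 4.18% of all genes tested, a small difference for a list of 30. Nqo1, a quinone reductase and classical NRF2 target, measured 3.76, 3.94, 3.64 and 3.29 CPM in OVX saline and 3.94, 3.09, 4.35 and 4.03 CPM in OVX Xmo (log2 fold change 0.07, SE 0.23). Hmox1, heme oxygenase 1, measured 5.26, 4.89, 5.24 and 5.73 CPM in OVX saline and 5.42, 5.22, 5.26 and 4.66 CPM in OVX Xmo (log2 fold change -0.04, SE 0.17). The groups overlapped in both genes, which were named after their values were seen. The cystine transporter gene Slc7a11 (log2 fold change 0.31, SE 0.15) and Sod2, the mitochondrial superoxide dismutase (0.23, SE 0.11), were higher with overlap and among the 3 smallest p of the list. The other was Fth1, the ferritin heavy chain that stores iron, at 2150, 2120, 2040 and 1950 CPM in OVX saline and 1860, 1700, 2010 and 1580 CPM in OVX Xmo (log2 fold change -0.21, SE 0.1). OVX Xmo 3 lay within the saline range of Fth1, and the other 3 lay below it. The core of the antioxidant response element, searched as TGACNNNGC on both strands, was in 10 of 35 promoters of this list (28.6%) and in 12.4% of all RefSeq promoters.

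Genes of estrogen signaling were higher in 12 of 19 cases, with a median of 0.073 that was 0.006 without OVX Xmo 2. Pgr, the progesterone receptor and a known estrogen target, measured 15.1, 12.7, 13 and 15.2 CPM in OVX saline and 18.8, 16.3, 17.1 and 21 CPM in OVX Xmo without overlap (log2 fold change 0.39, SE 0.14). Esrrg, an estrogen-related orphan receptor, had a log2 fold change of 0.54 (SE 0.19) with overlap. The estrogen receptor Esr1, named after its values were seen, measured 2.33, 2.04, 1.40 and 1.38 CPM in OVX saline and 1.48, 1.29, 0.726 and 1.64 CPM in OVX Xmo (log2 fold change -0.47, SE 0.3), and Esr2 did not pass the count filter. The full palindrome of the estrogen response element was in 0 of 29 promoters of this list and in 0.07% of all RefSeq promoters.

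The NF-kB list and the lists of stress genes had medians near that of all genes, and the list of growth factors leaned higher. The NF-kB list had a median of 0.021 with 11 of 19 higher. Nfkbia, the inhibitor that NF-kB itself induces, was its 1 member of 19 at an unadjusted p under 0.05. That is near the share of all genes tested (4.18%). Nfkbia measured 14.6, 17.9, 19.0 and 19.4 CPM in OVX saline and 12.3, 13.3, 13 and 13.8 CPM in OVX Xmo without overlap (log2 fold change -0.43, SE 0.14). Neutrophil genes were at the edge of detection, and 8 of 18 listed did not pass the filter. Of the other 10, 7 were higher and 3 lower, with a median of 1.664 (0.424 to 2.352 in other settings). At an unadjusted p under 0.05, 2 were higher, S100a9 and Retnlg, and 0 lower (2.03% and 2.15% of all genes tested). S100a9, a calcium-binding protein of neutrophils, measured 0.2, 0, 0 and 0 CPM in OVX saline and 0.917, 0.702, 0.771 and 1.04 CPM in OVX Xmo (log2 fold change 3.72, SE 1.01). OVX saline 1 holds all of the saline reads of S100a9, so the fitted fold depends on it. Over the other settings the log2 fold change of S100a9 ran from 1.85 to 7.69. The lowest was with limma on log2(TPM + 1), which compresses low values (mean TPM 0.16 in OVX saline and 3.1 in OVX Xmo). Retnlg, a secreted neutrophil protein, was at 0 in all 4 OVX saline libraries and in OVX Xmo 4, and at most 0.272 CPM in OVX Xmo. Its highest levels were in sham saline, at 0.454, 3.36 and 0.698 CPM, a group that also entered the count filter. Lcn2, an acute phase iron-binding protein, measured 0.276, 0, 0.325 and 0 CPM in OVX saline and 0.486, 0.758, 0.408 and 2.13 CPM in OVX Xmo. Microglial genes were lower in 18 of 23 cases with a median of -0.063 (-0.146 without OVX Xmo 2). Of these 23, 0 reached an unadjusted p under 0.05 in either direction (4.18% of all genes tested). Genes of neurotrophins and insulin-like growth factors were higher in 14 of 20 cases, with a median of 0.125 that was 0.046 without OVX Xmo 3. Ntf3, neurotrophin 3, had the smallest p of that list and was lower, at 9.54, 6.25, 6.67 and 5.16 CPM in OVX saline and 5.02, 2.56, 4.35 and 6.08 CPM in OVX Xmo with overlap (log2 fold change -0.62, SE 0.27). Irs2, an adaptor of the insulin and IGF1 receptors, measured 47.7, 54.4, 54.7 and 50.9 CPM in OVX saline and 61.9, 60.1, 64 and 55.9 CPM in OVX Xmo without overlap (log2 fold change 0.22, SE 0.1). The neurotrophin gene Bdnf, named after its values were seen, measured 51.6, 43.3, 36.7 and 38.8 CPM in OVX saline and 40.1, 41.1, 33.1 and 44.6 CPM in OVX Xmo (log2 fold change -0.1, SE 0.13). The amyloid precursor gene App measured 685, 685, 858 and 797 CPM in OVX saline and 905, 894, 881 and 907 CPM in OVX Xmo without overlap (log2 fold change 0.25, SE 0.12). The median of its list of amyloid and tau genes was 0.042. Genes of endoplasmic reticulum stress and heat shock were higher in 16 of 25 cases (median 0.046), and glucocorticoid and stress response genes in 8 of 17 (median -0.032). Apoptosis genes (-0.003), genes of AMPK, autophagy and lysosomes (0.025) and genes of the aryl hydrocarbon receptor (0.061) had medians near that of all genes. Interferon and antigen presentation genes were higher in 18 of 26 cases, with a median of 0.111 that was 0.024 without OVX Xmo 3.

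**Figure D5:**
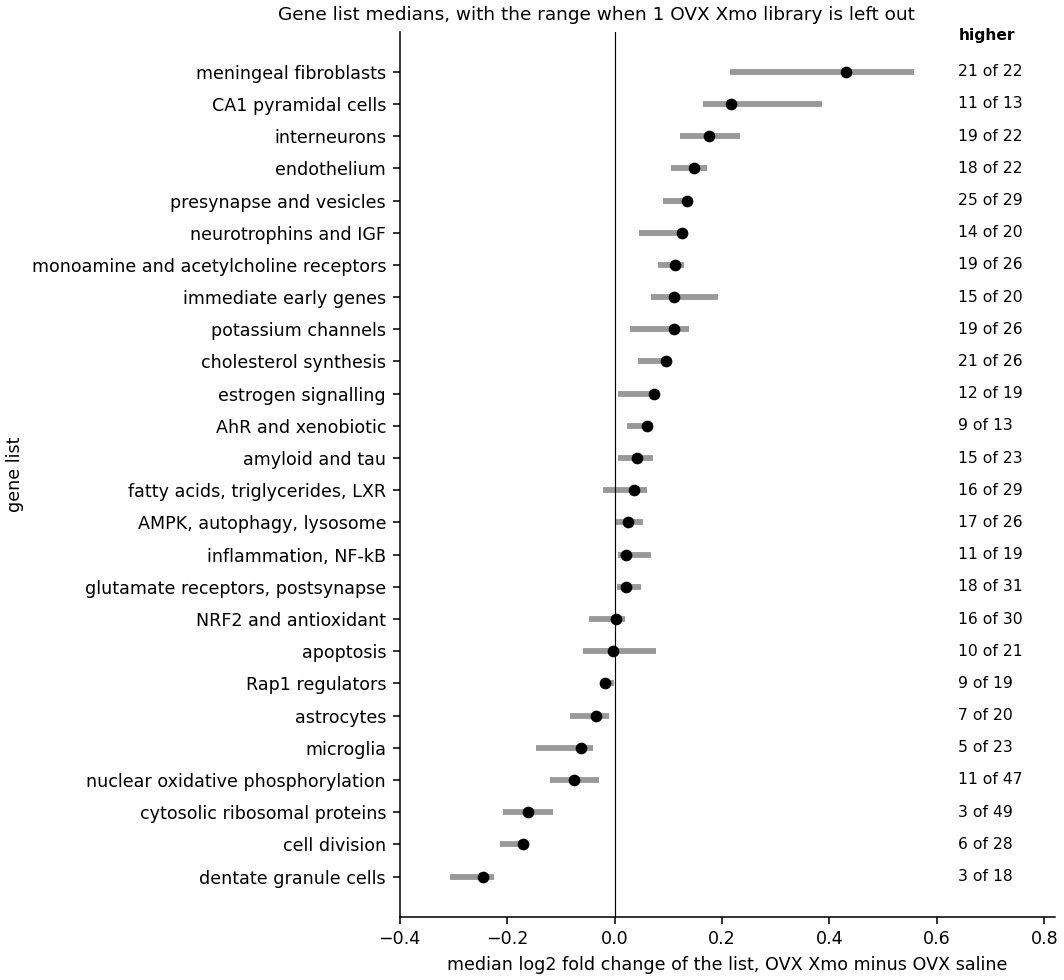
Median log2 fold change of OVX Xmo minus OVX saline for 26 gene lists (points), with the range of that median when each of the 4 OVX Xmo libraries is left out in turn (gray bars), and the number of members higher of those tested at the right. Among these 26 lists, a selection, the dentate granule, cell division and ribosomal protein lists lie lowest, and the NRF2 and apoptosis lists lie at 0. The choroid plexus, thalamic, ependymal, pituitary and neutrophil lists, whose medians are in the text, are among those not plotted.

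Markers of tissue next to the hippocampus differed by list, and the medians of the choroid plexus and thalamic lists came from single libraries. All 22 choroid plexus genes were higher with a median of 1.021, and the median was -0.155 without OVX Xmo 3. Ttr, the transthyretin gene that choroid plexus makes in bulk, measured 109, 88.8, 56.0 and 417 CPM in OVX saline and 105, 214, 1650 and 49.8 CPM in OVX Xmo. Thalamic and habenular genes were higher in 21 of 22 cases with a median of 0.507, and the median was -0.139 without OVX Xmo 2. Neocortical genes were higher in 13 of 18 cases (median 0.227), and their median was 0.132 to 0.192 when 1 OVX Xmo library was left out. Ependymal genes were lower in 13 of 17 cases (median -0.206), and their median was -0.542 without OVX Xmo 3. All 4 pituitary and hypothalamic genes that passed the filter, of 14 listed, were lower (median -0.623), with a summed level of at most 2.99 CPM. Their median was -0.57 without OVX Xmo 2 and 3, and its sign was opposite in 1 of 19 other settings. Meningeal fibroblast genes were higher in 21 of 22 cases (median 0.43), and their median was 0.214 without OVX Xmo 3 and 0.018 without OVX Xmo 2 and 3. Endothelial genes were higher in 18 of 22 cases with a median of 0.147, which was 0.053 without both libraries. Sox17, an endothelial transcription factor, measured 3.66, 2.14, 2.73 and 1.95 CPM in OVX saline and 5.75, 4.72, 5.22 and 3.58 CPM in OVX Xmo (log2 fold change 0.87, SE 0.22; 12.5% of its span overlaps another gene). With both libraries left out, the granule cell list had a median of -0.276, the receptor list 0.18, the cell division list -0.209 and the ribosomal list -0.189. Astrocyte (-0.034), myelin (-0.072) and oligodendrocyte precursor (-0.011) lists stayed near 0 in the full comparison. Their medians without both libraries were -0.133, -0.208 and -0.033. In that setting the myelin median was close to those of the cell division and ribosomal lists.

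The effect of xanthohumol after ovariectomy was set against that after sham surgery, which shares no library with it. The difference between both effects passed in 83 of 19969 genes (0.416%; edgeR interaction test, adjusted p under 0.05), and the effect had opposite signs in 81 of them. The sham saline libraries weigh on this comparison and stand apart: the mitochondrial genome took 25.8% ± 7.70 of their counts (SD, n = 3), against 16.2% ± 2.08 in sham Xmo (SD, n = 4). Of the 83 genes, 67 passed in sham Xmo against sham saline on their own, where 302 genes passed (1.51%), and 35 had an unadjusted p under 0.05 after ovariectomy. Rap1gap2 was lower with xanthohumol after sham surgery, at 131, 84.2 and 128 CPM with saline and 43.3, 49.8, 52.6 and 44.2 CPM with xanthohumol (interaction 2.37, SE 0.32, edgeR adjusted p = 0.00713). Nr2f2 measured 25.4, 20.7 and 20 CPM with saline and 10.8, 9.03, 9.84 and 11.8 CPM with xanthohumol in sham mice (interaction 1.93, SE 0.29, edgeR adjusted p = 0.0219). In both genes the groups without overlap after sham surgery had the reverse order of those after ovariectomy, apart from OVX Xmo 3 in Rap1gap2.

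Of the 12 higher genes 4 passed the interaction test, Tacr3, Nr2f2, Arhgap6 and Rabgap1, and of the 12 lower genes 3 passed, Tnfrsf25, Hcfc2 and Maml2. These genes were chosen for a small p after ovariectomy, and that comparison is part of the interaction. Their number passing is therefore no independent evidence. Maml2 was 29.8, 27.1 and 32.8 CPM with saline and 38.5, 32.9, 43.8 and 43.6 CPM with xanthohumol in sham mice (interaction -0.81, SE 0.16, edgeR adjusted p = 0.041). Bach2 did not pass (interaction 3.4, SE 0.72, edgeR adjusted p = 0.054), nor did Htr7 (0.65, SE 0.27, edgeR adjusted p = 0.228) or Cenpa (-1.03, SE 0.26, edgeR adjusted p = 0.082). Over all genes tested, 39.5% had the same sign in both treatment comparisons, and of the 834 genes at an unadjusted p under 0.05 after ovariectomy 219 did (26.3%). Across the 15814 genes of at least 1 CPM the Pearson correlation of the log2 fold changes was -0.21, given as a description since genes are not independent replicates.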

How the data were processed

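Gene expression was measured by RNA sequencing of mouse hippocampus, with TruSeq libraries made from Trizol-extracted total RNA per the labels' protocols. The authors deposited 1 table of 51826 features, with whole-number read counts, TPM and FPKM per sample per the file headers. Per the submitters' processing notes, the build was GRCm38.p6 and the tools included StringTie 1.3.3b and Bowtie2 2.3.2. The tool and strand setting used for counting are not given in the sources used here. All results start from the deposited counts, and the deposited TPM, normalized by the authors for length and depth, was used in 1 alternative. A further 12 columns carried names that match no sample and were not used, and the series' miRNA table was not used here.

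Counts were filtered with edgeR's filterByExpr (19969 genes kept), scaled with TMM factors and fitted with edgeR's quasi-likelihood model on 15 libraries in 4 groups (11 residual degrees of freedom), with Benjamini-Hochberg adjustment over all genes. Scripts were tested on simulated data. Levels are TMM-scaled CPM. The members and the 46 gene lists (2 more were added after values were seen) were chosen with earlier results of these data known. Genes were named by a rule: the 12 smallest p in each direction among annotated genes with a mean of at least 1 CPM and no overlap, the 5 largest folds in each direction among these at an unadjusted p under 0.05, and from each list the 3 smallest p and members without overlap. A selection of the list members is named in the text, and some items are not reported here. RefSeq promoters were matched by symbol for 25 of 28 cell division, 18 of 26 cholesterol, 26 of 31 NRF2 and 19 of 23 estrogen genes, some with more than 1 start. Alternatives were other scalings, filters and tools, fewer groups, a replicate block and leaving out libraries. Versions were edgeR 4.0.16, DESeq2 1.42.0 and limma 3.58.1 under R 4.3.3. The 8 OVX libraries held 20.8 to 39.1 × 1e+06 counts, and with 4 libraries per group the spread between libraries limits precision.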

Additional observations from a re-analysis of the deposited data

Results flagged for a closer look

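In 147 groups of 4 libraries examined for the genes named above, 14 had a highest or lowest library whose distance from its nearest neighbor took up most of the group's range (Dixon's test at 95%). Chance flags about 1 in 20 such groups. The largest in size were Ttr at 1650 CPM in OVX Xmo 3 and 417 CPM in OVX saline 4, and Pcdhgb7 at 133 CPM in OVX Xmo 2. The highest library also stood apart for Mfap3 in OVX saline (28.7 CPM), Rpl26 in OVX saline (174 CPM), Brip1os in OVX saline (9.44 CPM), S100a9 in OVX saline (0.2 CPM), Hcfc2 in OVX Xmo (29.4 CPM), Nhs in OVX Xmo (6.12 CPM) and Sod2 in OVX Xmo (129 CPM). The lowest library stood apart in OVX Xmo for AC166936.1 (1.72 CPM), Nr2f2 (12.4 CPM), Brip1os (9.82 CPM) and Slc7a11 (33.8 CPM).

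The effect of xanthohumol differed between ovariectomized and sham mice by the edgeR interaction test in 14 named genes (adjusted p under 0.05). Genes were named largely by their values after ovariectomy, which are part of this test, so the number passing is no independent evidence. The difference of log2 fold changes, ovariectomy minus sham, was positive in Lcn2 (8.02), S100a9 (7.16), Tacr3 (4.4), Trhr (2.84), Rap1gap2 (2.37), Nr2f2 (1.93), Arhgap6 (1.72), Adra2a (1.15), Vamp2 (1.07) and Rabgap1 (0.8). It was negative in AC166936.1 (-1.39), Hcfc2 (-1.34), Tnfrsf25 (-1.29) and Maml2 (-0.81). In Lcn2 the sham saline libraries measured 4.65, 98.6 and 8.42 CPM, so sham saline 2 weighs on its value. All 14 rest on the 3 sham saline libraries, whose mitochondrial share was 19.0%, 34.1% and 24.2%, and the part of that share in them was not tested.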

How the results depend on the processing

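The count of 0 genes passing between OVX Xmo and OVX saline became 1 with the 8 OVX libraries alone, 3 with DESeq2, and 1 with OVX Xmo 2 and 3 both left out (Rap1gap2, log2 fold change 1.34, edgeR adjusted p = 0.0347), a setting chosen after seeing the data. Leaving out 1 library gave 0 to 1. The genes higher at an unadjusted p under 0.05 (405) became 260 with plain library size, 640 without a filter on low counts and 218 with limma on log2(TPM + 1); the cause was not tested, except that the unfiltered fit tested 34743 genes. The 83 interaction genes became 852 with DESeq2, 1182 with plain library size, 20 without a filter, 183 at a mean CPM of at least 1 and 1753 with limma on log2(TPM + 1), and 6 to 96 when 1 OVX library was left out. Lowest were 6 without OVX saline 1 or OVX Xmo 4, 7 without OVX saline 2 and 9 without OVX Xmo 3. Plain library size moved the median of all genes to -0.015. Same-numbered libraries of both groups correlated at 0.0783, -0.268, -0.0567 and -0.178 across 15892 genes, so the numbers were not taken as pairs. With the replicate number as a block, 0 genes passed in the full fit and 0 in the fit of the 8 OVX libraries (smallest adjusted p 0.979 and 0.141), and the interaction count was 11. The medians of the dentate granule, receptor, cell division, ribosomal, cholesterol, interneuron and presynapse lists kept their sign in all 19 other settings. So did those of other lists, such as microglia, astrocytes and myelin. The settings refit largely the same libraries, so a kept sign is no further evidence. The median standard error of 0.151 on the log2 scale, set by 4 libraries a group, limits all small differences.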
